A study of Mus musculus with 18 samples.

Results

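The genes described here are the semaphorins and ephrins, which are guidance ligands, and the plexins and Ephs, which are their receptors, in the mouse heart after radiation. They were chosen by gene symbol (Sema3 to Sema7, Plxna to Plxnd, Efna, Efnb, Epha and Ephb). Of 51 genes with such a symbol, 47 reached 0.23 CPM (counts scaled to the size of the library) in at least 6 mice and are the members, out of 15054 genes tested. They are 28 ligands (20 semaphorins and 8 ephrins) and 19 receptors (9 plexins and 10 Ephs). The 4 genes below the filter were Ephs: Epha5, with a largest count of 2 in any mouse, Epha6 with 4, Epha8 with 1 and Epha10 with 5.

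Septal tissue of 18 CD-1 mice, an outbred wild-type stock, was sequenced, with 6 mice per group and each mouse an independent replicate. Irradiated mice received 25 Gy once under isoflurane and were studied 2 or 6 weeks later. Control mice were anesthetized without the 25 Gy. The paper describes them as sham controls that were imaged by CT, as the irradiated mice were. It also calls its controls littermates matched for age and sex, and the labels do not give the litters. No week is given for the controls, so their time since anesthesia is not known. Between the 2-week and 6-week mice, time since anesthesia cannot be told apart from time after 25 Gy. Per the paper, males and females of at least 8 weeks of age were used throughout. The sexes of single mice and of each group are not given. The sample labels speak of gamma rays and of the septum between the ventricles, where the paper's methods speak of X-rays and ventricles. Such tissue mixes cell types, so fewer cells of a type and less RNA per cell cannot be told apart.

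Semaphorins bind plexins, and the secreted class 3 semaphorins mostly do so together with the co-receptors Nrp1 and Nrp2. Plexins act on small GTPases and on the cytoskeleton, and in the heart they are known for outflow tract septation and for the patterning of vessels. Ephrins and Ephs are both bound to membranes and signal in both directions at cell contacts, with ephrin-B2 on arteries and EphB4 on veins as the best known pair.

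Total counts per mouse lay between 11522979 and 15501002 (median 13682439), so that a gene at the 0.23 CPM limit had about 3 counts. Library sizes were scaled with the TMM method of edgeR (trimmed mean of M-values) before CPM were computed, and a gene was called changed at an adjusted P under 0.05 in edgeR's quasi-likelihood test. A log2 fold change of 1 is a doubling, and each is given with its standard error (SE). TMM factors were higher in irradiated mice, with a mean of 0.909 in controls against 1.01 and 1.09 in the 2-week and 6-week mice (adjusted P = 0.00866 for both, exact permutation test). Mitochondrially encoded genes took means of 22.9%, 19.6% and 17.9% of the counts (exact permutation test, adjusted P = 0.0162 and 0.00866), and the part of either in the results below was not tested. Control mouse 4 stood apart from the other controls, with a summed CPM of 2164 for 7 fibroblast markers against at most 1138 and of 495 for 8 macrophage markers against at most 264. Results are therefore also given without it where a call changed.

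Plexins, an ephrin and an Eph led the levels per transcript length. In TPM, a length-scaled unit in which levels of different genes can be compared, Plxnd1 had a median of 42.6 over the 18 mice of all groups and Plxnb2 one of 38.5. The next levels belonged to Efnb3 with a median of 24.3 TPM, Ephb4 with 19.5 and Sema7a with 18.3, the highest ephrin, Eph and semaphorin. Plxnd1 and Plxnb2 overlapped widely, with ranges of 21.1 to 69.5 and 25.6 to 52.9 TPM, so their order was not resolved, and Efnb3, with 14.9 to 39.0 TPM, overlapped both. In control mice alone the medians were 30.4 TPM for Plxnb2, 27.0 for Efnb3 and 25.3 for Plxnd1, so the order differed between control and pooled mice. Plxna2 (median 16.9 TPM), Sema6d (16.1), Efna1 (14.3) and Epha4 (13.3) followed, also with overlapping ranges. At the low end, Sema3e, Sema4f and Ephb2 had medians of 0.0548, 0.0590 and 0.0431 TPM, and their single counts never exceeded 11 in a mouse. The ligands Sema3e and Sema4f thus sat far below their family, while the receptor of Sema3e, Plxnd1, had at least 21.1 TPM in every mouse.

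**Figure D1:**
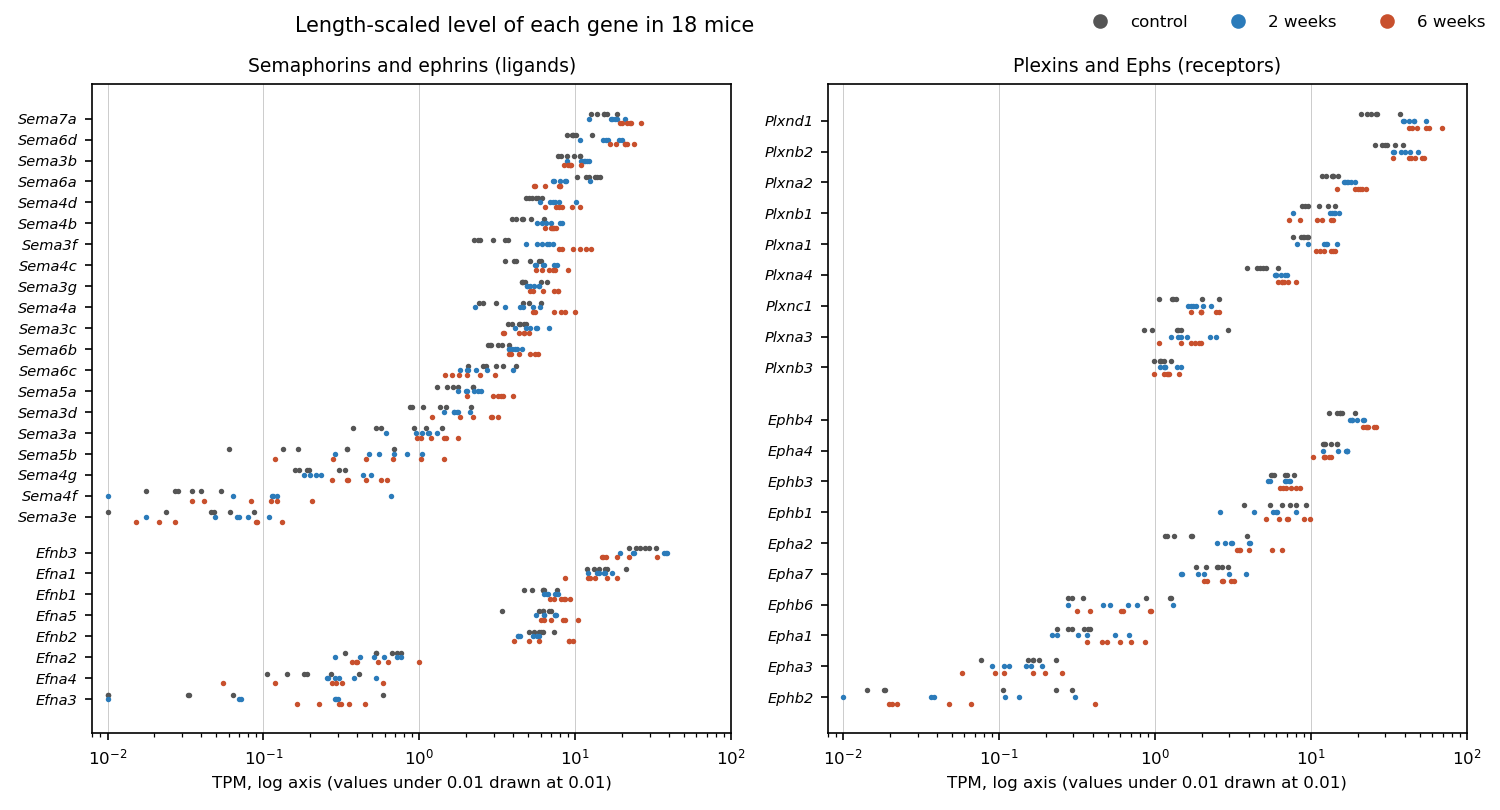
TPM (log axis) of each of the 47 genes in each of the 18 mice, with ligands on the left and receptors on the right, ordered by their median within each family; points are mice, coloured by group, and values under 0.01 are drawn at 0.01. The medians of Plxnd1 and Plxnb2 lie above those of all Ephs, although their lowest points overlap those of Ephb4, and the lowest genes of the semaphorins, ephrins and Ephs lie under 1 TPM.

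Few members changed at 2 weeks and about 1 in 3 had changed by 6 weeks. At 2 weeks, 3 of the 47 members were called (6.38%), with 2 higher and 1 lower, beside 5.02% of all genes tested (3.09% higher and 1.93% lower). At 6 weeks, 16 were called (34.0%), with 9 higher and 7 lower, beside 25.0% of all genes (13.5% and 11.5%). The 9 higher members include Sema4f and Efna3, which passed the expression filter only through irradiated mice. Between 2 and 6 weeks, 7 were called, with 2 higher and 5 lower at 6 weeks, beside 5.33% of all genes (3.31% and 2.01%). The share at 2 weeks was near that of all genes. An unadjusted P under 0.05 was reached by 15, 21 and 11 members in the 3 comparisons, beside 20.4%, 36.2% and 21.3% of all genes. The median log2 fold change over the members was 0.11 at 2 weeks and 0.12 at 6 weeks, beside -0.00 and -0.02 over all genes tested. These comparisons share their control mice and are not independent of each other.

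The split into higher and lower depended on the scaling. When libraries were scaled by their size alone, the median over all genes was above 0: on the log2 scale it was 0.15 for the 2-week and 0.24 for the 6-week comparison, and on the log2(TPM + 1) scale 0.18 and 0.29. At 6 weeks the members called were then 23 higher and 3 lower by library size, and 22 higher and 2 lower in TPM, in place of 9 and 7. Calls over all 15054 genes moved as well, to 5494 higher and 326 lower by library size and 7354 and 118 in TPM. In all, 38.7% and 49.6% of genes were then called, in place of 25.0%. By library size Sema6a, Efnb3 and Epha4 kept a lower call at 6 weeks, Sema3b, Sema3c, Sema6c and Efna1 lost theirs, and in TPM Sema6a and Sema6c kept it. At 2 weeks, 11 members were higher by library size and 12 in TPM, in place of 2. Over all genes, 1707 and 2774 were then higher, in place of 465.

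At 6 weeks, of 28 ligands, 12 were called (42.9%, 6 higher and 6 lower), and of 19 receptors 4 were called (21.1%, 3 higher and 1 lower), beside 25.0% of all genes. By family, 9 of 20 semaphorins (45%), 2 of 9 plexins (22.2%), 3 of 8 ephrins (37.5%) and 2 of 10 Ephs (20%) were called. Differences between these counts were not tested. An absolute log2 fold change above 1 was reached by 5 of the called members at 6 weeks, beside 5.95% of all genes: Sema3f, Sema4a, Sema4f and Efna3, which were higher, and Sema6a, which was lower. Sema4f and Efna3 reached 0.23 CPM in only 8 and 9 mice, all of them irradiated, and controls had at most 0.185 and 0.139 CPM. Their place among the higher members, and among the 12 ligands called, is therefore not independent of the filter. No called member reached it at 2 weeks or from 2 to 6 weeks, beside 0.903% and 1.14% of all genes. The 6 irradiated mice lay entirely above or below the 6 controls for 4 members at 2 weeks, beside 3.24% of all genes, and for 8 members at 6 weeks, beside 9.23%. Efna3 is 1 of these 8.

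**Figure D2:**
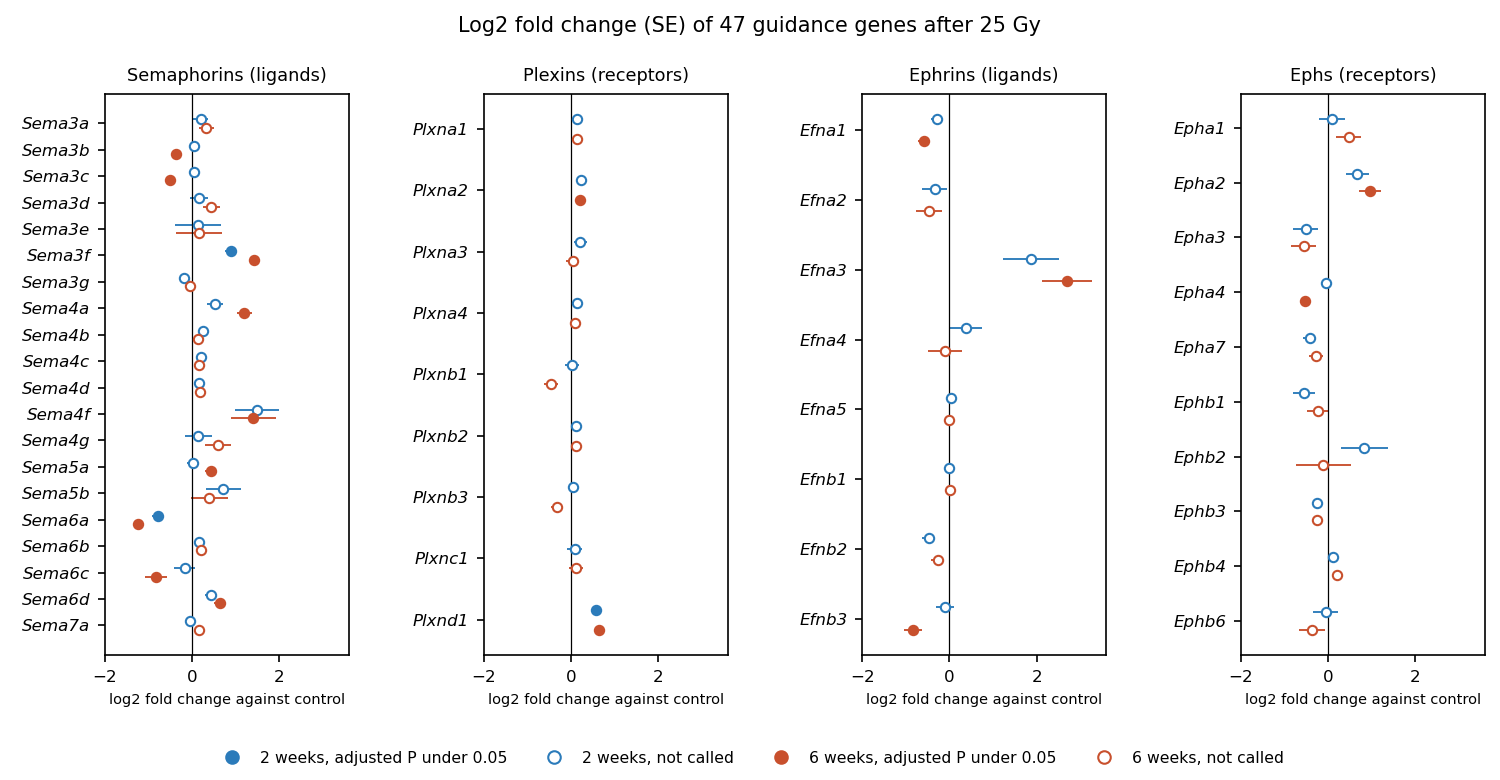
Log2 fold change against control (points) with SE (bars) for the 47 genes by family, at 2 weeks (blue) and 6 weeks (red), 6 mice per group; filled points had an adjusted P under 0.05. Of the semaphorins, 9 are filled at 6 weeks, with Sema3f, Sema4a and Sema4f to the right and Sema6a farthest to the left.

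Promoters are shown for the called genes with the smallest adjusted P at 6 weeks in each direction among those with a single RefSeq entry. Of the 47 members, 41 had an entry, and Sema3f, Sema6a, Sema3b and Efnb3 had none. Each line gives the 250 bases before the RefSeq start (GRCm38.p6) in the direction of the gene. Capitals mark GC boxes (GGGCGG) and CCAAT boxes (CCAAT) on either strand. Plxnd1 (chr6:115995006-115995255, minus strand) and Epha2 (chr4:141300971-141301220, plus strand) were higher, and Epha4 (chr1:77515089-77515338, minus strand) and Sema3c (chr5:17574566-17574815, plus strand) were lower.
Plxnd1: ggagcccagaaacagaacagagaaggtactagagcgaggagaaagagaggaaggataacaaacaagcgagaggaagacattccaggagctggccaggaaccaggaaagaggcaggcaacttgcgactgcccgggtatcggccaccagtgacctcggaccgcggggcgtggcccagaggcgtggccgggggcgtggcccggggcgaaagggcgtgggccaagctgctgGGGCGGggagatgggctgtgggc
Epha2: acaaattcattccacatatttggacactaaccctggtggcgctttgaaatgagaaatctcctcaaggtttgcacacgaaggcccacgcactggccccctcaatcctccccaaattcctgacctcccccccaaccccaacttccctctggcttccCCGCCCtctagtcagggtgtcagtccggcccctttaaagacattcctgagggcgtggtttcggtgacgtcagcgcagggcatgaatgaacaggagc
Epha4: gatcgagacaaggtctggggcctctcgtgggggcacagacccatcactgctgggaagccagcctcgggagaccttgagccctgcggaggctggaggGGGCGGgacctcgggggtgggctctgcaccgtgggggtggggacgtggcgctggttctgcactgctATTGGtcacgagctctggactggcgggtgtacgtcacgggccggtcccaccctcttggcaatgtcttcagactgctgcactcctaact
Sema3c: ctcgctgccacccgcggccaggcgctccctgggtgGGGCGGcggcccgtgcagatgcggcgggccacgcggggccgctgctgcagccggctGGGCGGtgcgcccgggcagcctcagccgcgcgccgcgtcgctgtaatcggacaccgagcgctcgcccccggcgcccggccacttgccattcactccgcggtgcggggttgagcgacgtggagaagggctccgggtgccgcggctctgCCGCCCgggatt
All 4 windows held a GC box, with 3 in that of Sema3c and 1 in each of the others, and none held a TATA box (TATAAA). Bases G and C made up 64.8% of the Plxnd1 window, 55.6% of that of Epha2, 66.0% of that of Epha4 and 78.4% of that of Sema3c. Over the 55 windows of members, 72.7% held a GC box and 1.82% a TATA box, beside 32.7% and 12.4% of 32851 windows of all genes. The members had passed the expression filter and the windows of all genes were not filtered, and the part of this in the differences was not tested. The median GC content was 64.4% for members and 52.4% for all. The RBPJ motif (TGGGAA) was in 18.2% of the members' windows and 21.6% of all, the AP-1 motif (TGANTCA) in 5.45% and 6.75%, and the p53 half-site in 5.45% and 7.13%. CCAAT boxes were in 29.1% and 33.8%. These are matches of letters on both strands and are not evidence of binding.

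Among the secreted class 3 semaphorins, Sema3f rose at both times and Sema3b and Sema3c fell at 6 weeks on the CPM scale. In TPM neither Sema3b nor Sema3c was called and Sema3b had the other sign. On that scale the median of all genes at 6 weeks was 0.29. Sema3f, a ligand that prefers the co-receptor Nrp2, ranged from 8.79 to 13.7 CPM in controls (median 9.66), from 14.8 to 21.6 at 2 weeks (20.01) and from 23.1 to 32.2 at 6 weeks (29.5). All 3 groups were separate from each other, and the lowest irradiated value was that of mouse 4 at 2 weeks. It was 1.84-fold higher than in controls 2 weeks after 25 Gy (log2 difference 0.88, SE 0.122, adjusted P = 0.000503) and 2.68-fold higher in the 6-week mice (1.42, SE 0.121, adjusted P = 3.56e-07). From 2 to 6 weeks it rose further by 0.54 on the log2 scale (SE 0.116, adjusted P = 0.0151).

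Sema3b, a growth-restraining relative of Sema3f, lies next to it on chromosome 9 on the same strand. On GRCm38, Sema3b spans 107597674 to 107609229 and Sema3f 107681500 to 107710475, with 72270 bases between them. Sema3b ranged from 27.3 to 38.7 CPM in controls (median 29.7), from 27.9 to 34.4 at 2 weeks (31.5) and from 20.9 to 28.3 at 6 weeks (23.1). Only the highest of the 6-week mice reached into the range of the controls. Sema3b was lower 6 weeks after 25 Gy (log2 difference -0.37, SE 0.0872, adjusted P = 0.00394) and not at 2 weeks (0.03, SE 0.0863). On the scale of TPM its value at 6 weeks had the other sign (0.02), beside a median of 0.29 over all genes. At 6 weeks the neighbours were thus called in opposite directions on the CPM scale.

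Sema3c, which is needed for septation of the outflow tract, ranged from 19.8 to 23.9 CPM in controls (median 22.01), from 18.9 to 25.9 at 2 weeks (22.7) and from 12.8 to 19.1 at 6 weeks (14.5). All 6-week mice were below all controls. On the log2 scale the difference from controls was 0.03 (SE 0.107) at 2 weeks and -0.52 (SE 0.109, adjusted P = 0.00172) at 6 weeks. The other class 3 members were not called at either time. Sema3a, a repellent of sympathetic axons in the heart, had medians of 3.14, 3.64 and 4.08 CPM in control, 2-week and 6-week mice (0.32 at 6 weeks, SE 0.170, adjusted P = 0.181). Sema3g, an endothelial semaphorin, had medians of 23.9, 21.9 and 23.4 CPM (-0.05 at 6 weeks, SE 0.105). On the TPM scale this value was 0.29 and passed the test, where the median over all genes was also 0.29. Sema3e, the direct ligand of Plxnd1, had at most 8 counts in any mouse and 0.16 (SE 0.529) at 6 weeks, so that no difference was detectable at this depth. Sema3d had 0.44 (SE 0.200, adjusted P = 0.124) at 6 weeks.

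Sema4a rose among the membrane-bound class 4 semaphorins. This ligand is known from immune cells and vessels. It ranged from 4.0 to 7.01 CPM in controls (median 4.91), from 4.01 to 9.60 at 2 weeks (7.67) and from 10.4 to 14.6 at 6 weeks (11.4). The 6-week mice were above every mouse of both other groups, and controls and 2-week mice overlapped. Sema4a was 2.29-fold higher 6 weeks after 25 Gy (log2 difference 1.19, SE 0.172, adjusted P = 7.33e-05), and at 2 weeks it did not pass the test (0.52, SE 0.177, adjusted P = 0.0943). Without control mouse 4, the highest control, the 2-week value was 0.64 and passed the test. Its annotation holds a microRNA, Mir7011, on the same strand, which shares 73 exonic bases with it.

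Sema4f was called at 6 weeks on very few counts. Controls had 1 or 2 counts per mouse, 2-week mice between 0 and 9 and 6-week mice 1, 2, 4, 4, 5 and 11. The groups overlapped, and all controls were under the floor of 3 counts. The fitted log2 fold change of 1.40 (SE 0.519, adjusted P = 0.0496) depends on the prior count and is no bound, and the call was lost in 14 of the 18 fits without 1 mouse, control mouse 4 among them. The other class 4 members were not called, and their log2 fold changes at 6 weeks were all above 0, from 0.14 for Sema4b to 0.59 for Sema4g. Sema4d, the ligand of Plxnb1, had medians of 24.6, 28.1 and 28.9 CPM (log2 fold change 0.19 at 6 weeks, SE 0.10, adjusted P = 0.193).

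Class 6, whose members are anchored in the membrane, moved in both directions. Sema6a, the ligand of plexins A2 and A4, fell: it ranged from 49.8 to 63.3 CPM in controls (median 55.1), from 27.2 to 45.2 at 2 weeks (30.1) and from 18.3 to 29.1 at 6 weeks (23.5). Every irradiated mouse was below every control, and the highest irradiated value, 45.2, was that of mouse 4 at 2 weeks. The fitted log2 change was -0.79 (SE 0.125, adjusted P = 0.00167) at 2 weeks and -1.24 (SE 0.127, adjusted P = 2.95e-06) at 6 weeks. The further change from 2 to 6 weeks, -0.46 (SE 0.128), was just past the test (adjusted P = 0.0445) and was lost in 13 of the 18 fits without 1 mouse.

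Sema6d, a ligand of plexin A1 that guides heart morphogenesis, had the highest class 6 median in TPM over the 18 mice and rose. In control mice alone the order was the other way, with medians of 12.8 TPM for Sema6a and 9.68 for Sema6d. Levels of Sema6d ranged from 41.4 to 69.2 CPM in controls (median 58.3), from 50.1 to 103 at 2 weeks (77.7) and from 75.7 to 103 at 6 weeks (86.6). The 6-week mice were all above the controls, while the 2-week mice spanned both. It was 1.56-fold higher 6 weeks after 25 Gy (log2 difference 0.64, SE 0.144, adjusted P = 0.00291), and at 2 weeks the value was 0.43 (SE 0.143, adjusted P = 0.0882). Sema6c fell from a median of 7.17 CPM (range 4.86 to 9.24) in controls to 4.88 (range 1.29 to 5.41) at 6 weeks, with overlapping groups (log2 fold change -0.82, SE 0.253, adjusted P = 0.0222). Mice 5 and 6 at 6 weeks were the lowest, and the call was lost without control mouse 1 or without mouse 6 of 6 weeks. Sema6b was not called (0.20, SE 0.104).

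Of the remaining semaphorins, Sema5a, a transmembrane ligand with thrombospondin repeats, ranged from 13.7 to 21.6 CPM in controls (median 18.4), from 15.5 to 21.7 at 2 weeks (18.3) and from 16.9 to 33.9 at 6 weeks (24.0). The groups overlapped, and 6-week mouse 5 was the highest. Against controls the log2 difference was 0.42 (SE 0.137, adjusted P = 0.0311) at 6 weeks, and the call was lost in 5 of the 18 fits: those without control mouse 3 or 6 and those without mouse 2, 3 or 5 of 6 weeks. Sema7a, a lipid-anchored semaphorin that binds integrin beta-1 and the most abundant of the family, was at medians of 51.9, 52.3 and 57.9 CPM (0.15 at 6 weeks, SE 0.0948, adjusted P = 0.266).

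**Figure D3:**
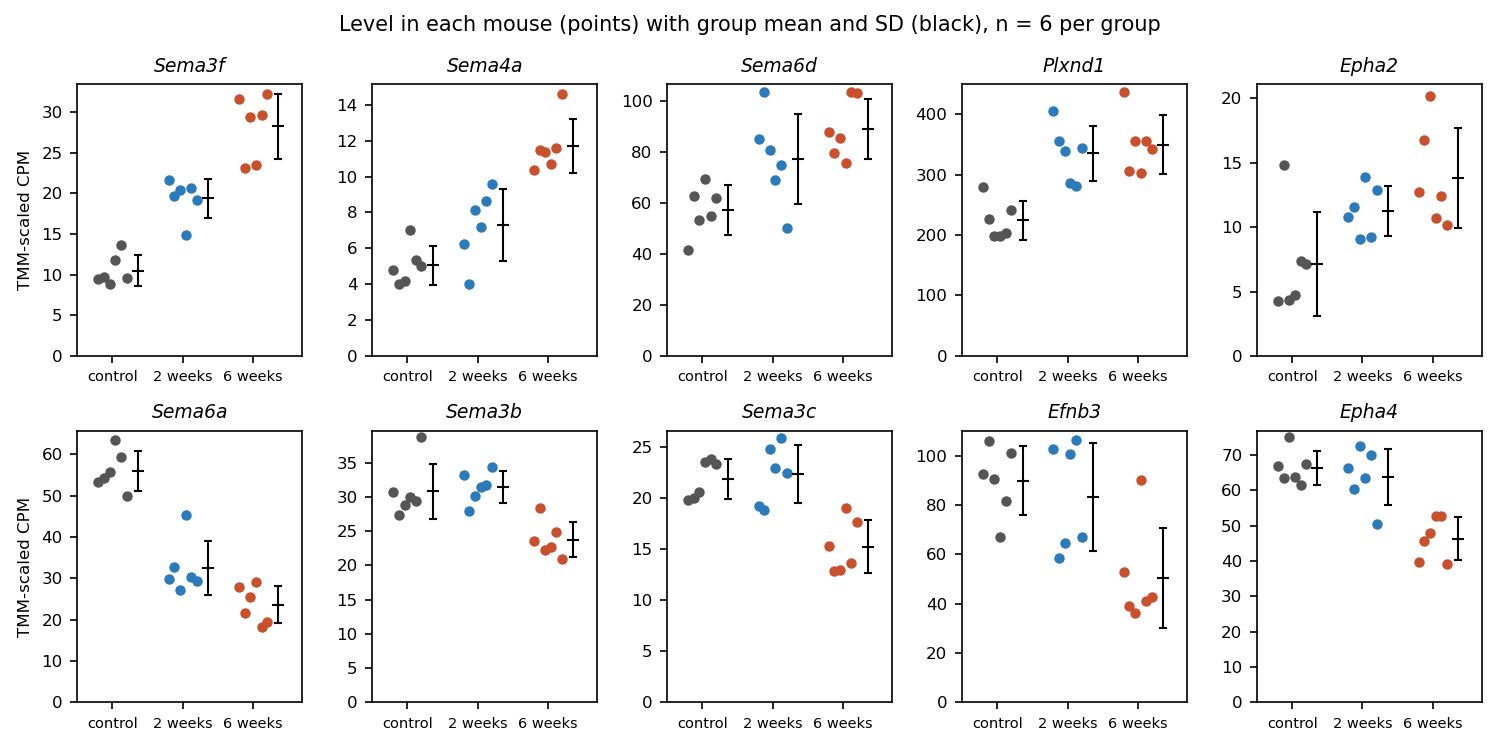
TMM-scaled CPM in each mouse (points) with group mean and SD (black), 6 mice per group, for 5 genes higher at 6 weeks (top) and 5 lower (bottom); each axis starts at 0. For Sema3f and Sema4a the 6-week points lie above all others, Sema6a falls already at 2 weeks, and Sema3b, Sema3c and Epha4 have 2-week points near those of controls and lower 6-week points in CPM. In TPM the change of Sema3b at 6 weeks had the other sign (0.02, beside a median of 0.29 over all genes).

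Plxnd1 was the plexin that rose at both times. It is the receptor of Sema3e in vessels and is needed for outflow septation. Its levels ranged from 198 to 279.8 CPM in controls (median 215), from 281 to 405 at 2 weeks (342) and from 302 to 437 at 6 weeks (349). Every irradiated mouse was above every control, although the highest control and the lowest 2-week mouse were nearly equal. Plxnd1 was 1.49-fold higher 2 weeks after 25 Gy (log2 difference 0.58, SE 0.108, adjusted P = 0.00527) and 1.56-fold higher in the 6-week mice (0.64, SE 0.108, adjusted P = 0.000305). From 2 to 6 weeks the value was 0.06 (SE 0.108, adjusted P = 0.800).

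Plxna2, a receptor of Sema6a, rose slightly at 6 weeks. It ranged from 115 to 124 CPM in controls (median 121), from 130.3 to 145 at 2 weeks (143) and from 118 to 169.7 at 6 weeks (138). The 2-week mice were all above the controls, and at 6 weeks mouse 4 was within their range. On the log2 scale the difference from controls was 0.22 at both times (SE 0.0654), with an adjusted P of 0.0527 at 2 weeks and 0.0202 at 6 weeks. In 12 of 33 alternatives, DESeq2 and limma voom among them, Plxna2 passed the test at 2 weeks. Its ligand Sema6a was lower at both times, as described above. Plxnb1, the receptor of Sema4d, had medians of 98.5, 97.9 and 70.3 CPM and missed the test at 6 weeks (-0.45, SE 0.168, adjusted P = 0.0560). It passed in 4 of the 18 fits without 1 mouse, among them that without control mouse 4, the lowest control, and also with DESeq2. Plxnb2, the most abundant B plexin, was at medians of 209, 218 and 223 CPM (0.12 at 6 weeks, SE 0.0924). The other 5 plexins were not called, with log2 fold changes between -0.33 for Plxnb3 and 0.13 for Plxna1 at 6 weeks.

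Ephrin-A genes Efna1, Efna3 and Efna4 lie side by side on chromosome 3, on the same strand, and did not move alike. The gap between Efna1 and Efna3 is 32756 bases and that between Efna3 and Efna4 10424 bases. Efna1, the main ligand of EphA2, ranged from 16.2 to 24.5 CPM in controls (median 20.9), from 13.7 to 19.2 at 2 weeks (17.1) and from 9.49 to 18.5 at 6 weeks (13.5). The groups overlapped, and the lowest values were at 6 weeks. The fitted log2 change was -0.29 (SE 0.135, adjusted P = 0.233) at 2 weeks and -0.57 (SE 0.136, adjusted P = 0.00452) at 6 weeks.

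Efna3 had counts of 2, 1, 0, 2, 0 and 1 in controls, all under the floor of 3, and of 13, 8, 8, 6, 4 and 7 at 6 weeks. These 2 groups did not overlap, and 2-week mice, with between 0 and 9 counts, overlapped both. The fitted log2 fold change at 6 weeks was 2.69 (SE 0.570, adjusted P = 0.000986), which depends on the prior count and is no bound. In TPM, control mouse 4 had 0.588, above the highest 6-week mouse at 0.449, and the other controls had at most 0.0636. Efna3 shares 344 exonic bases with the antisense gene Gm15998, and whether counting used strand is not given in the sources used here. Efna4, between 0.0741 and 0.719 CPM over all mice, was not called (-0.10 at 6 weeks, SE 0.392).

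Efnb3 fell among the transmembrane ephrin-B ligands, and Efnb1 and Efnb2 were not called. Efnb3 ranged from 66.9 to 106 CPM in controls (median 91.7), from 58.5 to 106 at 2 weeks (83.9) and from 36.1 to 90.0 at 6 weeks (41.9). At 6 weeks 5 mice were below all controls, and mouse 4, at 90.0, lay within the range of the controls. Against controls the log2 difference was -0.11 (SE 0.206) at 2 weeks and -0.84 (SE 0.209, adjusted P = 0.00630) at 6 weeks. Efnb2, the arterial ligand, had medians of 21.5, 14.7 and 16.3 CPM, with -0.48 (SE 0.151, adjusted P = 0.0728) at 2 weeks and -0.26 (SE 0.150, adjusted P = 0.218) at 6 weeks. With DESeq2, with limma voom and with only the 2 groups compared, Efnb2 was called lower at 2 weeks. Efnb1 had medians of 24.1, 22.2 and 22.7 CPM (0.02 at 6 weeks, SE 0.0979), and its lowest control was mouse 4, at 15.6.

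Among the Ephs, Epha2 rose and Epha4 fell at 6 weeks. Epha2, the receptor of ephrin-A1, ranged from 4.30 to 14.8 CPM in controls (median 5.94), from 9.04 to 13.9 at 2 weeks (11.2) and from 10.2 to 20.2 at 6 weeks (12.5). Control mouse 2, at 14.8, was the only control above 7.33 CPM, and all irradiated mice were above the other 5 controls. On the log2 scale the difference from controls was 0.67 (SE 0.262, adjusted P = 0.151) at 2 weeks and 0.97 (SE 0.260, adjusted P = 0.010) at 6 weeks. Without control mouse 2 the 2-week value was 1.02 and passed the test (adjusted P = 0.0120). Epha2 was thus called higher and its ligand gene Efna1 lower at 6 weeks on the CPM scale. The call of Efna1 was lost by library size and in TPM.

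Epha4, a receptor that binds ephrins of both classes, was the most abundant A-type Eph. It ranged from 61.5 to 75.0 CPM in controls (median 65.3), from 50.5 to 72.7 at 2 weeks (65.0) and from 39.3 to 52.9 at 6 weeks (46.9). All 6-week mice were below all controls, and the 2-week mice overlapped both groups. The fitted log2 change was -0.05 (SE 0.0911) at 2 weeks and -0.52 (SE 0.0918, adjusted P = 0.000455) at 6 weeks. In TPM the 6-week call of Epha4 was lost. Ephb4, the venous receptor of ephrin-B2, had medians of 85.2, 84.4 and 93.9 CPM and was not called (0.21 at 6 weeks, SE 0.0821, adjusted P = 0.0761), and its lowest control was mouse 4, at 61.1. The other 7 Ephs were not called at any time, with log2 fold changes at 6 weeks between -0.56 for Epha3 and 0.47 for Epha1. Epha1 shares 236 exonic bases with Zyx on the opposite strand.

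Between 2 and 6 weeks, the calls were mostly of genes that were lower at 6 weeks. Sema3f (log2 change 0.54) and Sema4a (0.67, SE 0.164, adjusted P = 0.0261) were higher, and Sema3b (-0.40, SE 0.0869, adjusted P = 0.0160), Sema3c (-0.55, SE 0.108, adjusted P = 0.00947), Epha4 (-0.46, SE 0.0917, adjusted P = 0.00990), Sema6a and Efnb3 (-0.73, SE 0.208, adjusted P = 0.0483) were lower. For Sema3b, Sema3c, Epha4 and Efnb3, the value at 2 weeks was near 0 against controls. The call of Efnb3 was lost in 15 of the 18 fits without 1 mouse, and the lower count fell from 5 to 3 in fits such as that without mouse 1 of 2 weeks. Sema4a lost its call without mouse 1 or 4 of 2 weeks or mouse 6 of 6 weeks. Only Sema3f and Sema4a had groups that did not overlap, beside 3.54% of all genes.

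Without control mouse 4, 5 members were called at 2 weeks, with Sema4a and Sema5b added, and the higher count rose from 2 to 4. The same count of 4 was reached without mouse 2 of 2 weeks, with Sema4a and Sema4f added. At 6 weeks, 16 members were called without control mouse 4, with Plxnb1 in place of Sema4f. The 7 calls between 2 and 6 weeks were the same without it.

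Other genes of the semaphorin and plexin pathway were mostly higher where they were called. Of 39 tested, 8 were called at 2 weeks, all of them higher (20.5%, beside 5.02% of all genes), and at 6 weeks 14 were higher and 3 lower (43.6% in all, beside 25.0%), with medians of 0.13 and 0.28 on the log2 scale. From 2 to 6 weeks 6 were higher and 1 lower. The genes called lower are not among those named here, and the lowest value of the list at 6 weeks was -0.78. This list and the next were chosen with earlier results of these data known, so their shares are not independent of the data. Nrp2, the co-receptor of Sema3f, rose from a mean of 86.1 ± 17.9 CPM (SD, n = 6) to 122 ± 15.2 at 2 weeks (log2 difference 0.50, SE 0.116, adjusted P = 0.0189) and 125 ± 11.5 in the 6-week mice (0.53, SE 0.116, adjusted P = 0.00236). Nrp1, the co-receptor of Sema3a, was at 241, 239 and 235 CPM in these groups and was not called (-0.04 at 6 weeks, SE 0.0748). On the TPM scale this value was 0.36 and passed the test, beside a median of 0.29 over all genes. Rnd1, a GTPase that binds plexins, rose by 1.23 (SE 0.222, adjusted P = 0.00440) at 2 weeks and by 2.01 (SE 0.209) at 6 weeks on the log2 scale. Cfl1, the actin-severing protein cofilin, rose by 0.45 (SE 0.0873, adjusted P = 0.00643) and by 0.86 (SE 0.0876). The kinase gene Fes, whose product acts with CRMP proteins, rose by 0.57 (SE 0.105) and by 0.97 (SE 0.104), and Fyn, a Src family kinase, by 0.36 (SE 0.0777) and by 0.48 (SE 0.0777). Crmp1, a collapsin response mediator, rose from a mean of 0.559 CPM to 1.71 and 3.70. Cd72, the semaphorin 4D receptor of B cells, rose from 0.101 to 0.370 and 0.999 CPM, on few counts, and its call at 2 weeks was lost in 5 of the 18 fits without 1 mouse. Rap1b, a GTPase acted on by plexins, was called higher from 2 to 6 weeks (0.36, SE 0.0823, adjusted P = 0.0200).

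Of 39 other genes of ephrin and Eph signaling, 4 were called at 2 weeks, all higher (10.3%, beside 5.02% of all genes). At 6 weeks 8 were higher and 3 lower, a share of 28.2% that was near the 25.0% of all genes. The medians were 0.06 and 0.02. Inpp5d, a phosphatase of blood cells, rose from a mean of 13.2 ± 2.7 CPM (SD, n = 6) to 18.4 ± 1.68 at 2 weeks and 27.2 ± 4.95 at 6 weeks (log2 difference 1.03, SE 0.131, adjusted P = 2.23e-05). Anks1b, an adaptor related to those that bind Ephs, rose from 0.485 to 1.10 and 2.37 CPM (2.26 at 6 weeks, SE 0.275). Src rose by 0.38 (SE 0.0991, adjusted P = 0.0353) at 2 weeks and by 0.39 (SE 0.0991) at 6 weeks, and Arhgef16, an exchange factor that binds EphA2, by 1.11 (SE 0.236) at 2 weeks. The 2-week calls of Inpp5d, Anks1b and Src were lost in 14, 9 and 8 of the 18 fits without 1 mouse. Adam10, the protease that sheds ephrins, was 0.33 higher at 6 weeks (SE 0.0716, adjusted P = 0.00250), and Grip2, a scaffold of ephrin-B, was lower (-0.50, SE 0.123, adjusted P = 0.00564), a call that was lost by library size and in TPM. Anks1, an Eph adaptor, was lower from 2 to 6 weeks (-0.26, SE 0.0702, adjusted P = 0.0420). Of 19 genes of the netrin, Slit and related families, none was called at 2 weeks by edgeR, where 2 had an unadjusted P under 0.05, and 2 were higher (Robo4 and Unc5b) and 2 lower (Neo1 and Ntng2) at 6 weeks, 21.1% in all beside 25.0% of all genes. In TPM neither Neo1 nor Ntng2 was called and Neo1 had the other sign (0.10, beside a median of 0.29 over all genes). Unc5b lost its call in 5 of the 18 fits without 1 mouse. From 2 to 6 weeks 1 of the 19 was called, Flrt1, which was lower (5.26%, beside 5.33% of all genes), and its call was lost in TPM.

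Markers of several cell types moved over the same weeks. All 8 cardiomyocyte markers were lower at 6 weeks (median log2 fold change -0.46), and their summed level was 35915 to 53738 CPM in controls, 37410.2 to 46012 at 2 weeks and 29642 to 38416 at 6 weeks. Of 8 macrophage markers, 7 were higher at 6 weeks (median 1.08), with sums of 166 to 495, 320.0 to 408 and 429.5 to 583 CPM. Of 10 endothelial markers 4 were higher and 2 lower (median 0.12), with sums of 943 to 1152, 1005 to 1167 and 1141 to 1555 CPM, and of 7 fibroblast markers 1 was lower (median -0.32). Of 6 pericyte markers 1 was higher, of 3 venous markers 1 was higher and 1 lower, of 5 lymphatic markers 1 was higher and 2 lower, and of 4 epicardial and mesothelial markers 1 was higher. None of the 6 arterial, 4 smooth muscle and 4 atrial markers was called at 6 weeks by edgeR, nor had any an unadjusted P under 0.05. Among lymphocyte lists, 2 of 4 T and NK cell markers and 2 of 3 B cell markers were higher, at summed levels of at most 3.64 and 2.85 CPM. No marker was at 0 in every mouse, and markers under the filter included Ackr1, Cd3d, Cd3g and Ms4a1. The part of these shifts in the changes of Sema4a, Sema6a, Plxnd1, Cd72, Inpp5d and the other genes above was not tested.

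**Figure D4:**
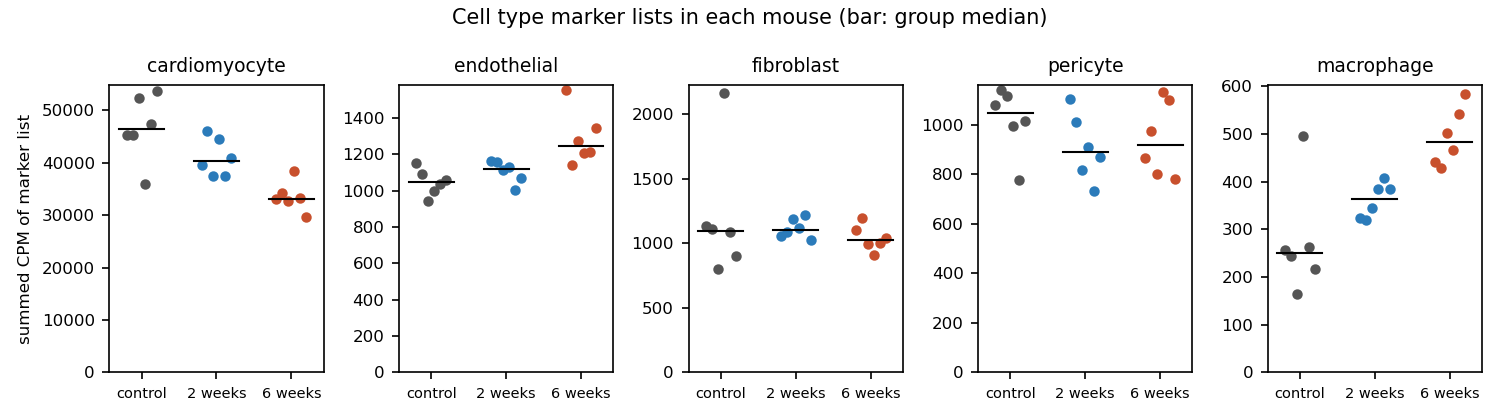
Summed TMM-scaled CPM of marker lists (8 cardiomyocyte, 10 endothelial, 7 fibroblast, 6 pericyte and 8 macrophage genes) in each mouse (points), with the group median as a bar and each axis from 0. The cardiomyocyte sum falls and the macrophage sum rises with time after 25 Gy, and control mouse 4 is the high fibroblast and macrophage point.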

How the data were processed

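RNA of 18 mice was sequenced by the authors after a KAPA RNA HyperPrep preparation, aligned to GRCm38 with STAR, quantified with Salmon 1.0 (per the labels) and summed to genes with tximport. The deposited estimated counts are not all whole numbers and not normalized between mice, and the deposited TPM values come from the same quantification. Symbols were found for 29380 of the genes and positions were taken from GENCODE M21 (GRCm38).

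The rounded counts were tested with edgeR 4.0.16 (R 4.3.3). The filter required 0.23 CPM in 6 or more mice, TMM factors scaled the libraries, and 1 quasi-likelihood model held the 3 groups. Contrasts between groups were tested two-sided with the quasi-likelihood F test, with Benjamini-Hochberg adjustment over the 15054 genes of a comparison. The SE is the absolute log2 fold change divided by the square root of F. Values per mouse (total counts, TMM factor, mitochondrial share) were compared with exact two-sided permutation tests, adjusted over 6 tests.

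The members, the pathway and marker lists and the rule for named genes (members called in any comparison, heart and vessel genes, the most abundant member of each family and members below the filter, and of the pathway lists Nrp1, Nrp2 and up to 4 called genes per list and comparison) were chosen with earlier results of these data known. Sema3d, Sema4b, Sema4g, Sema5b, Sema6b, Plxnb1, Plxnb3, Plxna1, Efna4, Epha1 and Epha3 fall outside that rule and were named with their values in view. Ephb2, Crmp1 and Anks1 also fall outside it and are not among the 55 genes followed under the alternatives. The code was tested on simulated data. Motifs were searched in RefSeq promoter windows. Alternatives were DESeq2 1.42.0, limma 3.58.1 (voom), other scalings and filters, other thresholds, log2 TPM with pseudocounts of 1 and 0.1, a block for the replicate number, a covariate for Y-linked expression, only the groups compared, and each mouse left out. The depth of 11522979 to 15501002 counts per mouse sets a floor of 3 counts, which covers counting error only.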

Additional observations from a re-analysis of the deposited data

Results flagged for a closer look

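Among 132 groups of 6 mice (44 genes in 3 groups), 12 held a mouse whose gap to the nearest of the others exceeded Dixon's critical share of the group's range, where chance gives about 1 in 20. For members, the mouse was high for Sema3b in control mouse 6 (38.7 CPM), Sema4a in mouse 6 of 6 weeks (14.6), Sema6a in mouse 4 of 2 weeks (45.2), Efnb3 in mouse 4 of 6 weeks (90.0) and Epha2 in control mouse 2 (14.8). It was low for Sema3f in mouse 4 of 2 weeks (14.8) and Efnb1 in control mouse 4 (15.6). Mouse 4 of 2 weeks was thus the irradiated mouse nearest to the controls for both Sema3f and Sema6a. For pathway genes, it was low for Fyn in control mouse 4 (39.2) and in mouse 4 of 6 weeks (55.2), and high for Rap1b in control mouse 4 (57.1), Src in mouse 1 of 6 weeks (11.6) and Anks1b in mouse 3 of 2 weeks (1.88).

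The effect against controls differed between 6 and 2 weeks, by the test of 6 against 2 weeks, for 7 members. On the log2 scale it was larger at 6 weeks by 0.54 for Sema3f and 0.67 for Sema4a. The difference was -0.40 for Sema3b, -0.55 for Sema3c, -0.46 for Sema6a, -0.73 for Efnb3 and -0.46 for Epha4.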

How the results depend on the processing

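Changes of 55 named genes (36 members and 19 other genes) in each comparison were fitted under the alternatives. Of these values, 4906 kept their sign and side of the threshold, 224 lost and 142 gained a call, and 161 changed sign. In 153 of the sign changes the gene was called in neither fit. The other 8 were at 6 weeks in TPM, with pseudocounts of 1 and 0.1: Sema3b at 0.0176 and 0.0200, Sema3g at 0.29 and 0.34, Neo1 at 0.10 and 0.11, and Nrp1 at 0.36 and 0.37. With library size alone the median of all genes moved to 0.15 at 2 weeks and 0.24 at 6 weeks, and with TPM to 0.18 and 0.29 (pseudocount 1) or 0.24 and 0.37 (0.1). At 6 weeks the members were then 23 higher and 3 lower (library size), 22 and 2 (TPM + 1) and 23 and 3 (TPM + 0.1), in place of 9 and 7. At 2 weeks 11, 12 and 12 were higher in place of 2, and from 2 to 6 weeks lower calls were 3, 1 and 1 in place of 5, with 1 higher under both TPM forms. Under these 3 settings 38.7%, 49.6% and 49.6% of all genes were called at 6 weeks. At 2 weeks the shares of all genes were 11.9%, 18.7% and 20.1%, and from 2 to 6 weeks 7.98%, 7.13% and 4.99%.

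Where an absolute log2 change over 1 was also required, 0 and 0 were called at 2 weeks, 4 higher and 1 lower at 6 weeks and 0 and 0 between them, since this is a stricter threshold on the same fit. At an adjusted P under 0.10, 7 were higher and 2 lower at 2 weeks. Lower calls at 2 weeks were also 2, with Efnb2 added, under DESeq2, voom and only the groups compared. From 2 to 6 weeks they were 3 with no filter and with only the groups compared. The cause was not tested. Without 1 mouse each, counts of higher and lower calls ranged from 2 to 4 and 1 to 2 at 2 weeks, 7 to 10 and 6 to 8 at 6 weeks and 1 to 3 and 3 to 5 between them.

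Mice with the same replicate number had correlations between -0.0828 and 0.106 (median 0.0333), beside a median of -0.0154 for mice with different numbers. Correlations this weak cannot settle whether the numbers pair the mice. With the number as a replicate block, 3, 16 and 6 members were called, with Plxnb1 in place of Sema4f at 6 weeks and Efnb3 lost between 2 and 6 weeks. Genes of few counts, such as Sema3e, Sema4f, Ephb2, Efna3 and Efna4, are limited by depth.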
